A study of Homo sapiens with 12 samples.

Results

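The genes described here build and anchor the actin cytoskeleton: 45 named genes for actins, tropomyosins, non-muscle myosin, filament crosslinkers, calponins and transgelins, focal adhesion adaptors, regulators of filament turnover and the transcription factor SRF. Each gene was read from the probe set of the array that names it alone and has the highest mean over the 12 arrays. Of the 45 genes, 41 had such a probe set, out of 19775 genes on the array, and 40 passed the filter on dim probe sets and were tested, out of 13227. ACTG1 (gamma-actin), TPM3 (a tropomyosin), FLNA and FLNC (filamins, actin crosslinkers) had no probe set that names 1 gene and were not analysed here as single genes. CNN1, calponin 1, a smooth muscle gene, lay below the filter, with means of 4.26 log2 with mix 1, 4.34 with mix 2 and 4.37 in control cells, and was not tested.

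RNA came from MDA-MB-231, an established human breast cancer cell line with mesenchymal features. Cells were seeded on day 1 and transfected on day 2 with siRNA at 33 nM: siYAP/TAZ mix #1 (here mix 1), siYAP/TAZ mix #2 (mix 2) or a control siRNA (control). Medium was renewed on day 3 and cells were harvested on day 4. Each group had 4 biological replicates, A to D, plated, transfected and harvested in parallel, and each gave 1 Affymetrix array. All groups are thus 1 cell line with transient transfection, and since each mix is directed at both genes, effects of YAP and of TAZ cannot be told apart. The series asks what loss of YAP and TAZ does to gene expression in these cells.

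Actin filaments are bundled by crosslinkers, lined by tropomyosins and pulled by non-muscle myosin II into stress fibres, whose ends are held at focal adhesions, where talin, vinculin and other adaptors link them to integrins. YAP and TAZ are transcriptional coactivators that bind TEAD factors, and filament tension and cell spreading are known to promote their nuclear activity. Many cytoskeletal genes are also read by SRF and its actin-sensing MRTF cofactors, which act at a DNA element called the CArG box.

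The targeted mRNAs were low with both mixes. YAP1 averaged 8.15 ± 0.36 log2 with mix 1, 8.09 ± 0.10 with mix 2 and 11.16 ± 0.10 in control (SD, n = 4 each). WWTR1, which encodes TAZ, averaged 9.07 ± 0.22 log2 with mix 1, 8.95 ± 0.12 with mix 2 and 11.40 ± 0.10 in control. Array medians over all probe sets lay between 5.69 and 5.78 log2, and across genes the correlation between replicates was 0.993 to 0.998. Of the markers that MDA-MB-231 should carry, VIM, CD44, AXL, LGALS1 and CAV1 were well above the filter of 5.46 log2, but SPARC was below it. Of those it should lack, CDH1, PGR and FOXA1 lay below the filter, while ESR1 (6.26 log2 with mix 1, 6.19 with mix 2 and 6.31 in control), ERBB2 and GATA3 lay above it. Because RNA was taken from whole cultures, fewer cells of a kind and less RNA per cell cannot be told apart.

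Promoters are shown for 4 members, those with the largest mean change among the genes that carry a CArG box near an annotated start and were called in 1 direction with each mix (ACTN1, with a smaller change, is not shown); they are shown because SRF is known to act on cytoskeletal genes through this element. The sequences are from RefSeq (GRCh38.p14), from 250 bases before to 50 bases after an annotated start, 5′ to 3′ in the gene's direction, and the capitals mark the CArG box. SVIL lies on the minus strand (chr10:29634922-29635221), MYLK on the minus strand (chr3:123620499-123620798), TPM4 on the plus strand (chr19:16067288-16067587) and TES on the plus strand (chr7:116222703-116223002).
SVIL: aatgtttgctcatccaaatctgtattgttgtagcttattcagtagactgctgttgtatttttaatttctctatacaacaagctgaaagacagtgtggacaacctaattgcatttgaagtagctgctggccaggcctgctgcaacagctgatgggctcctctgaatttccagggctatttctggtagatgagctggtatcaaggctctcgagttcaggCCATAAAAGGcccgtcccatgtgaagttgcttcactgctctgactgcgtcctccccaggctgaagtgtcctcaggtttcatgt
MYLK: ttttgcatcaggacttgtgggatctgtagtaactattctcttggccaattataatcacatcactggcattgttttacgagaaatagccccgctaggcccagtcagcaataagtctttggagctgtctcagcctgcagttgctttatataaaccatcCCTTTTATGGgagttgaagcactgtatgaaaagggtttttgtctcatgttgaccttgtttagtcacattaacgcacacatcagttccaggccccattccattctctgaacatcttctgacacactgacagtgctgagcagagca
TPM4: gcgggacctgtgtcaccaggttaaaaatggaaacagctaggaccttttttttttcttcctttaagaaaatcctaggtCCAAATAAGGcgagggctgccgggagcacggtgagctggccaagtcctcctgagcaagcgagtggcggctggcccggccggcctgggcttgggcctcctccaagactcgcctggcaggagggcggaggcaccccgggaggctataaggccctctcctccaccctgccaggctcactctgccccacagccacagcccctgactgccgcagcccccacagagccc
TES: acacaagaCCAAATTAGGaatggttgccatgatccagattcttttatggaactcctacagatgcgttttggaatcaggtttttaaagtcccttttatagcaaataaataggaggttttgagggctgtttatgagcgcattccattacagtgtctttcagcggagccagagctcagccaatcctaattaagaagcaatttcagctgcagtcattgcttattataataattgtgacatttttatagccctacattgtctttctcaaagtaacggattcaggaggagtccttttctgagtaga

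The CArG box began 33 bases before the start in SVIL, 94 before it in MYLK, 173 before it in TPM4 and 242 before it in TES. SVIL, TPM4 and TES were higher with each mix and MYLK was lower, so these CArG boxes stood in genes that moved in both directions. Among the 70 promoter windows found for 39 members, 9 held a CArG box (12.9%), in ACTG1, ACTN1, CNN2, FLNA, MYLK, SRF, SVIL, TES and TPM4, against 1.29% of all 35116 windows. The TEAD motif GGAATG, on either strand, was found in 14 of the 70 windows (20%) and in 14% of all windows. It appears in the TES window at 234 bases before the start, where it overlaps the end of the CArG box, and as CATTCC at 114 bases before it, and in the MYLK window as CATTCC at the base before the start. The AP-1 motif TGANTCA, on either strand, was in 7 windows (10.0%), against 7.71% of all. A match describes these letters only, and several members have other annotated starts (4 windows for SVIL, 3 for TPM4, 2 for TES and 1 for MYLK).

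As a group, the actin and adhesion genes split in direction with each mix. With mix 1, 12 of the 40 tested genes rose and 13 fell against control at an adjusted p below 0.05, or 62.5% together. In the same comparison 67.1% of all tested genes passed (34.8% higher and 32.3% lower), so the members' share was near the background. With mix 2, 20 rose and 11 fell, or 77.5%, where 68.6% of all genes passed (36.7% higher and 31.9% lower). The median log2 change of the members was 0.01 with mix 1 and 0.15 with mix 2, against 0.01 and 0.03 over all tested genes. Their median absolute log2 change was 0.25 with mix 1 and 0.32 with mix 2, against 0.36 and 0.39 over all genes. Both comparisons use the same 4 control arrays. A change of at least 2-fold was called for 4 members with mix 1 (SVIL and TPM4 higher, MYH10 and LIMK2 lower), or 10% of the 40 against 16.4% of all genes. With mix 2 it was called for 2 (SVIL higher, MYLK lower), or 5% against 18.4%.

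Without the probe sets that can bind transcripts of related genes, 30 members were tested and the counts with mix 2 were 13 higher (43.3%) and 7 lower (23.3%), where 34.5% of the 10359 genes tested that way were higher and 32.1% lower. The members' median log2 change with mix 2 was then 0.05. With each gene's probe sets averaged, 16 of the 40 members were higher and 12 lower with mix 2. Of all 13227 genes, 4676 were higher and 4380 lower in that run. With mix 1, 12 members were higher and 18 lower, where 4492 of all genes were higher and 4399 lower. The members' median was then 0.026 with mix 2 and -0.052 with mix 1, against 0.015 and -0.002 over all genes. On the probe sets used, the arrays of mix 1 and control did not overlap for 20 members, and for 63.3% of all genes. Those of mix 2 and control did not overlap for 31 members, and for 64.8% of all genes.

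The mixes also differed from each other. Set directly against mix 2, mix 1 had 7 members higher and 20 lower, where 25.0% of all genes were higher and 28.7% lower (53.7% together). The median log2 difference between the mixes was -0.17 for the members and -0.03 for all tested genes. Together, 27 of the 40 members (67.5%) differed between the mixes, so each gene is given with both. The arrays of mix 1 and mix 2 did not overlap for 23 members, and for 46.1% of all genes.

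**Figure D1:**
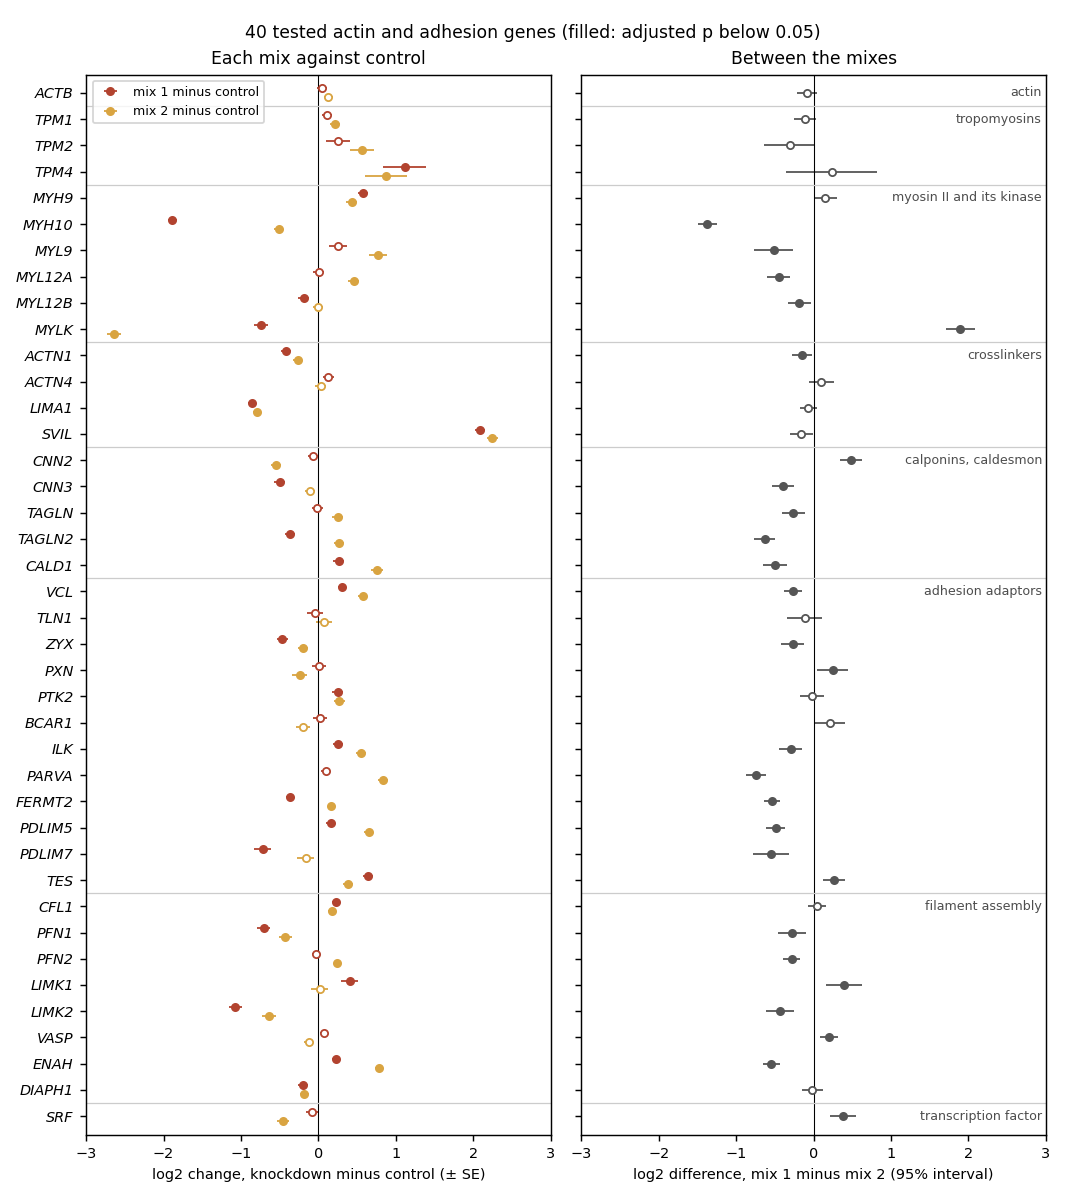
Log2 change of the 40 tested actin and adhesion genes with mix 1 and with mix 2 against control (left, points with SE) and the difference between mix 1 and mix 2 (right, with 95% intervals), filled where the adjusted p is below 0.05. SVIL lies at 2.09 and 2.25, MYH10 at -1.89 and -0.52 and MYLK at -0.75 and -2.64, while most other members lie within 1 log2 unit of 0.

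Beta-actin did not pass the test with either mix. ACTB, beta-actin, the main cytoplasmic actin with gamma-actin, read 13.80, 13.87, 13.79 and 13.68 log2 in replicates A to D with mix 1, and 13.87, 13.95, 13.84 and 13.81 with mix 2, against 13.80, 13.82, 13.65 and 13.68 in control. The 3 groups overlapped, and the log2 change was 0.05 with mix 1 (95% interval -0.09 to 0.18, limma adjusted p = 0.522) and 0.13 with mix 2 (-0.00 to 0.26, adjusted p = 0.0757). The mix 2 change passed with arrays centred on their medians (0.14, adjusted p = 0.0279) and with a trended, robust eBayes (adjusted p = 0.0115). Gamma-actin is only seen through 9 probe sets that name both ACTB and ACTG1, whose proteins are nearly identical. Their mean read 14.08, 14.09, 14.09 and 14.06 log2 with mix 1, 13.68, 13.68, 13.67 and 13.69 with mix 2 and 14.07, 14.03, 14.08 and 14.08 in control. All 4 mix 2 arrays lay below all others, while mix 1 overlapped control. Per probe set the change ran from -0.02 to 0.03 log2 with mix 1 and from -0.48 to -0.30 with mix 2, and which of the 2 actins it belongs to was not resolved. The 2 other probe sets that name ACTB alone did not pass with either mix (0.105 and 0.148 log2 with mix 2).

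Tropomyosins, coiled coils that lie along the filament and set which proteins can bind it, were higher in each call made on the probe sets used. TPM4 read 9.77, 9.17, 10.53 and 10.67 log2 with mix 1 and 9.96, 9.89, 9.76 and 9.59 with mix 2, against 8.74, 8.46, 9.21 and 9.28 in control. All mix 2 arrays were above control, but with mix 1 replicate B lay within the control range, and replicates A and B lay below C and D both with mix 1 and in control. The log2 change was 1.11 with mix 1 (SE 0.27, adjusted p = 0.00221) and 0.88 with mix 2 (SE 0.27, adjusted p = 0.0104). The other 3 TPM4 probe sets did not pass with either mix, with changes of -0.17 to 0.32 with mix 1 and 0.00 to 0.10 with mix 2, and the mean of the gene's probe sets rose by 0.40 with mix 1 but not past the threshold with mix 2 (0.25, adjusted p = 0.159). Array medians parted in the same way in those groups (5.71 and 5.71 against 5.78 and 5.77 with mix 1, and 5.69 and 5.69 against 5.75 and 5.73 in control). With the arrays centred on their medians both TPM4 calls held (adjusted p = 0.00379 with mix 1 and 0.0148 with mix 2). The medians parted by far less than TPM4 did, so centring left its mix 1 change at 1.11 and cannot answer for the split.

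TPM1 and TPM2, the other tested tropomyosins, rose with mix 2 by 0.22 log2 (adjusted p = 0.00698) and 0.56 log2 (adjusted p = 0.00451). With mix 1 they had changes of 0.11 (adjusted p = 0.147) and 0.26 (adjusted p = 0.158). Of the 4 other TPM1 probe sets, 1, not shared with related genes, fell with mix 1 (-0.82, adjusted p = 1.23e-05) and 3 did not pass. All 4 rose with mix 2. With the TPM1 probe sets averaged, mix 1 stood below mix 2 (-0.42, adjusted p = 7.30e-06). With the replicate letter as a block, TPM2 passed with mix 1 (0.26, adjusted p = 0.0361). A TPM2 probe set not shared with related genes gave -0.03 with mix 2, so this rise rests on a probe set that can bind related transcripts.

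The heavy chains of non-muscle myosin II changed in opposite directions. MYH9 and MYH10 encode the heavy chains of myosin IIA and IIB, the motors that contract stress fibres. MYH10 read 9.22, 9.18, 9.16 and 9.31 log2 with mix 1 and 10.60, 10.61, 10.68 and 10.48 with mix 2, against 11.12, 11.14, 11.07 and 11.10 in control. The 3 groups were fully separate, with mix 1 lowest. MYH10 thus fell 3.71-fold with mix 1 (log2 change -1.89, SE 0.06, adjusted p = 1.45e-12) and 1.43-fold with mix 2 (-0.52, SE 0.06, adjusted p = 1.27e-06), and the mixes differed by -1.38 log2 (adjusted p = 1.29e-10). MYH9 rose, by 0.58 log2 with mix 1 (adjusted p = 2.22e-06) and 0.43 with mix 2 (adjusted p = 4.64e-05), to means of 10.45 ± 0.10 and 10.30 ± 0.06, against 9.87 ± 0.10 log2 in control. The change of MYH9 exceeded that of MYH10 by 2.47 log2 (SE 0.09) with mix 1 and by 0.94 (SE 0.04) with mix 2, a comparison chosen after the values were seen.

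MYLK encodes myosin light chain kinase, which switches myosin II on by phosphorylating its regulatory light chain. Its arrays read 8.80, 8.55, 8.40 and 8.55 log2 with mix 1 and 6.71, 6.51, 6.86 and 6.63 with mix 2, against 9.41, 9.31, 9.27 and 9.29 in control. Here mix 2 was lowest and again no group overlapped another. MYLK fell 6.24-fold with mix 2 (log2 change -2.64, SE 0.09, adjusted p = 2.45e-12) and 1.68-fold with mix 1 (-0.75, adjusted p = 2.57e-06), and mix 1 was higher than mix 2 by 1.90 log2 (adjusted p = 3.41e-10). The heavy chain MYH10 and the kinase MYLK, the members with the largest falls with mix 1 and with mix 2, were thus each lowered by both mixes but to unequal depth and in opposite order.

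On the probe sets used, the regulatory light chains themselves changed by less than 1 log2 unit. MYL9, the light chain typical of stress fibres, rose by 0.77 log2 with mix 2 (adjusted p = 3.15e-05) and had a change of 0.25 with mix 1 (adjusted p = 0.0739, against 0.0231 with the replicate letter as a block and 0.0419 with centred arrays). Its other probe set, which is not shared with related genes, had 0.08 with mix 2 (adjusted p = 0.408 when it stood for the gene). MYL12A rose by 0.46 with mix 2 (adjusted p = 2.85e-05) and stood at 0.01 with mix 1 (adjusted p = 0.956). However, 3 dimmer MYL12A probe sets fell with mix 1, by 0.52 to 1.14 log2. With mix 2, 2 of these fell (-1.39 and -0.52) and 1 did not pass (-0.19). The mean of the MYL12A probe sets had -0.68 with mix 1 and -0.41 with mix 2. MYL12B, a near-identical light chain, fell by 0.19 with mix 1 (adjusted p = 0.0252), a call that was lost without control replicate A (adjusted p = 0.0884) or without mix 1 replicate D (adjusted p = 0.0809), and had -0.01 with mix 2 (adjusted p = 0.958). One probe set that names both MYL12A and MYL12B gave -0.09 with mix 1 and 0.16 with mix 2.

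**Figure D2:**
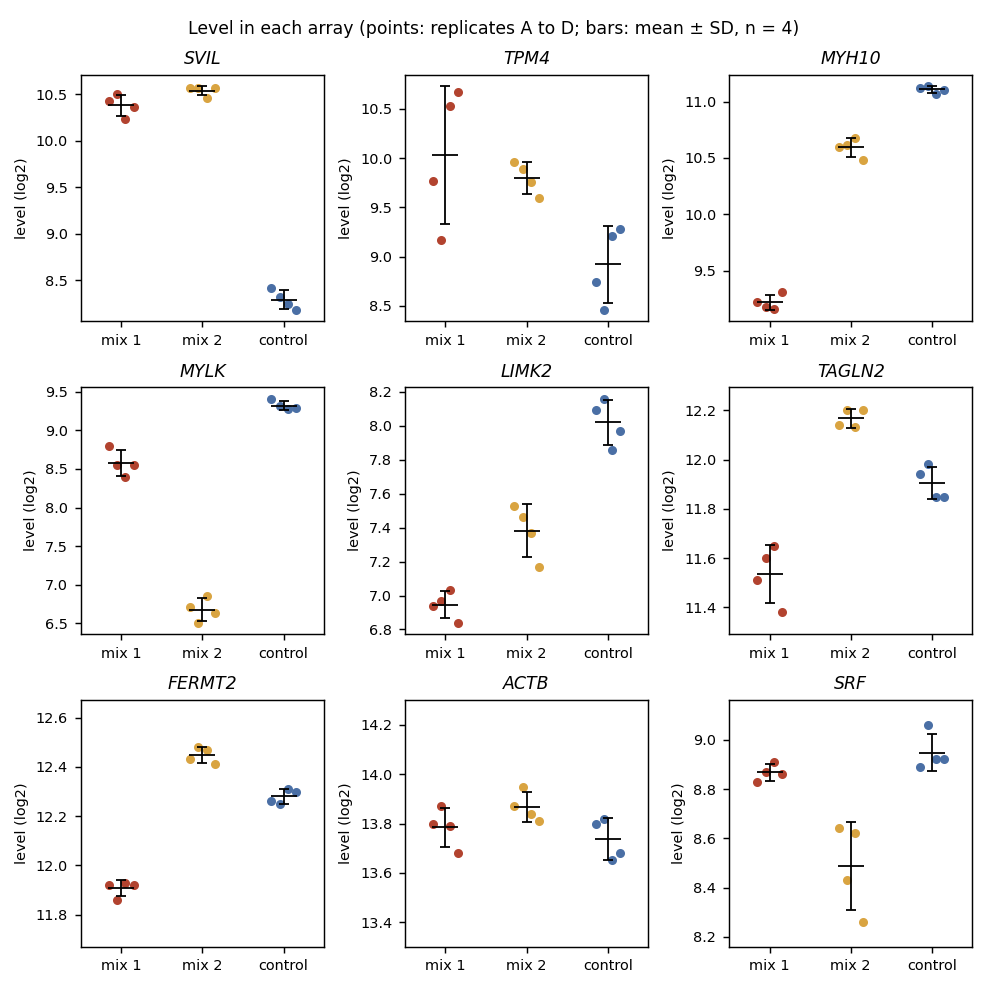
Levels (log2) of 9 genes in each array with mix 1, mix 2 and control; points are replicates A to D and bars the mean and SD (n = 4). SVIL is higher and MYH10, MYLK and LIMK2 are lower with both mixes without overlap, whereas TAGLN2 and FERMT2 lie below control with mix 1 and above it with mix 2.

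Among the crosslinkers, supervillin stood apart. SVIL, an actin- and myosin-binding protein of the membrane skeleton, read 10.42, 10.50, 10.23 and 10.36 log2 with mix 1 and 10.56, 10.56, 10.46 and 10.57 with mix 2, against 8.42, 8.32, 8.24 and 8.18 in control. Every knockdown array lay above every control array, while the 2 mixes overlapped. SVIL rose 4.25-fold with mix 1 (log2 change 2.09, SE 0.07, adjusted p = 3.83e-12) and 4.75-fold with mix 2 (2.25, SE 0.07, adjusted p = 1.22e-12), the largest rise of any tested member with either mix, and mix 1 minus mix 2 was -0.16 (adjusted p = 0.0666, and 0.0333 to 0.0497 under 4 of the alternatives). Of its 3 other probe sets, 2 rose as well, by 1.36 to 2.16 log2, and 1 did not pass with either mix (-0.05 and -0.09).

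LIMA1 (EPLIN), which stabilises and bundles filaments, fell by 0.86 log2 with mix 1 (adjusted p = 1.94e-09) and 0.79 with mix 2 (adjusted p = 4.30e-09). The dimmest of its 3 probe sets rose with mix 2 (1.35), so that the mean of the probe sets lost the call there (-0.10, adjusted p = 0.409). The alpha-actinins, which crosslink filaments, divided. ACTN1 fell by 0.42 with mix 1 (adjusted p = 2.17e-05) and 0.27 with mix 2 (adjusted p = 0.00113), whereas ACTN4 had 0.13 with mix 1 (adjusted p = 0.138) and 0.03 with mix 2 (adjusted p = 0.744). The ACTN1 difference between the mixes (-0.15, adjusted p = 0.0499) was lost without any 1 of 10 of the 12 arrays, at adjusted p up to 0.145.

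Calponins, transgelins and caldesmon bind along actin filaments, and several are best known from smooth muscle. TAGLN2, transgelin 2, read 11.51, 11.60, 11.65 and 11.38 log2 with mix 1 and 12.14, 12.20, 12.13 and 12.20 with mix 2, against 11.94, 11.98, 11.85 and 11.85 in control. Control lay between the mixes with no overlap on either side. TAGLN2 fell by 0.37 log2 with mix 1 (SE 0.06, adjusted p = 1.18e-04) and rose by 0.26 with mix 2 (SE 0.06, adjusted p = 0.00200), and the difference between the mixes was -0.63 (adjusted p = 1.09e-06). Its second probe set passed in the same directions.

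Its relative TAGLN rose with mix 2 (0.25, adjusted p = 0.00535) and had -0.01 with mix 1 (adjusted p = 0.889). The other 2 TAGLN probe sets fell with mix 1 (-0.55 and -0.73) and 1 of them fell with mix 2 (-0.23), and the mean of the gene's probe sets fell with mix 1 (-0.43, adjusted p = 1.76e-05) and had -0.06 with mix 2. The calponins were each called with 1 mix: CNN2 fell by 0.55 with mix 2 (adjusted p = 3.23e-06; -0.07 with mix 1, adjusted p = 0.395) and CNN3 fell by 0.50 with mix 1 (adjusted p = 9.77e-06; -0.11 with mix 2, adjusted p = 0.165). That contrast was itself tested for each gene, and mix 1 minus mix 2 was 0.48 for CNN2 (adjusted p = 2.42e-05) and -0.39 for CNN3 (adjusted p = 1.79e-04). CNN2 was read only by a probe set that can bind transcripts of related genes. CALD1, caldesmon, which restrains myosin on the filament, rose by 0.26 with mix 1 (adjusted p = 0.00584) and 0.76 with mix 2 (adjusted p = 2.91e-07), but the mean of its 9 probe sets did not pass with mix 1 (0.10, adjusted p = 0.165).

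Of the 12 focal adhesion adaptors tested, 5 rose and 3 fell with mix 1, where 34.8% of all genes rose and 32.3% fell. With mix 2, 7 rose and 2 fell, where 36.7% of all genes rose and 31.9% fell. The share of adaptors called with mix 1 was thus near that of all genes. VCL, vinculin, which reinforces the link from talin to actin under tension, rose by 0.31 log2 with mix 1 (adjusted p = 1.48e-04) and 0.57 with mix 2 (adjusted p = 2.25e-07), with means of 12.57 ± 0.08 log2 with mix 1, 12.84 ± 0.04 with mix 2 and 12.27 ± 0.03 in control. TLN1, talin 1, which activates integrins, had -0.04 with mix 1 (adjusted p = 0.759) and 0.07 with mix 2 (adjusted p = 0.569). One of its dimmer probe sets, not shared with related genes, fell by 1.12 with mix 1 and 0.69 with mix 2, and the mean of its probe sets had -0.42 and -0.22.

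Integrin-linked kinase and parvin form a complex that ties integrin tails to actin. On the probe sets used, the mRNAs of both were higher with mix 2, and that of ILK with mix 1 as well. ILK rose by 0.25 with mix 1 (adjusted p = 0.00522) and 0.55 with mix 2 (adjusted p = 5.52e-06). PARVA, alpha-parvin, rose by 0.84 with mix 2 (adjusted p = 1.23e-08) and had 0.09 with mix 1 (adjusted p = 0.200), with a difference between the mixes of -0.75 (adjusted p = 1.26e-07). This order depended on the probe set: the PARVA probe set that is not shared with related genes and has the highest mean rose by 1.28 with mix 1 and had 0.12 with mix 2, so that mix 1 minus mix 2 became 1.15. Of the 6 other PARVA probe sets, 5 rose and 1 fell with mix 1, while 4 rose and 2 did not pass with mix 2. The mean of the gene's probe sets rose with mix 1 (0.48, adjusted p = 3.47e-06).

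FERMT2, kindlin 2, which activates integrins together with talin, was the other gene called in opposite directions. It read 11.92, 11.86, 11.93 and 11.92 log2 with mix 1 and 12.43, 12.48, 12.47 and 12.41 with mix 2, against 12.26, 12.25, 12.31 and 12.30 in control. As with TAGLN2, control lay between the mixes without overlap. FERMT2 fell by 0.37 with mix 1 (SE 0.05, adjusted p = 5.95e-06) and rose by 0.17 with mix 2 (SE 0.05, adjusted p = 0.00587), and the mixes differed by -0.54 (adjusted p = 2.59e-07). The mean of its probe sets did not pass with mix 2 (0.05, adjusted p = 0.531).

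Next came the signalling proteins at adhesions. PTK2, focal adhesion kinase, rose by 0.25 with mix 1 (adjusted p = 0.00726) and 0.27 with mix 2 (adjusted p = 0.00453). A dimmer PTK2 probe set, not shared with related genes, had 0.01 with mix 1 and rose by 1.27 with mix 2 (adjusted p = 1.47e-09), and with the gene's probe sets averaged mix 1 stood below mix 2 (-0.30, adjusted p = 3.55e-04). PXN, paxillin, its scaffold, had 0.01 with mix 1 (adjusted p = 0.967) and fell by 0.24 with mix 2 (adjusted p = 0.0296), a call lost without control replicate A or B or mix 2 replicate B or D (adjusted p = 0.0557 to 0.0886). BCAR1 (p130Cas), a stretch-sensitive scaffold, had 0.02 with mix 1 (adjusted p = 0.864) and -0.20 with mix 2 (adjusted p = 0.0664).

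LIM-domain proteins of stress fibres and adhesions went in both directions. ZYX, zyxin, which is recruited to strained filaments, fell by 0.47 with mix 1 (adjusted p = 2.56e-05) and 0.20 with mix 2 (adjusted p = 0.0184), the second call being lost without control replicate B (adjusted p = 0.0690) or mix 2 replicate C (adjusted p = 0.0531). TES, testin, a zyxin partner whose promoter is shown above, rose by 0.64 with mix 1 (adjusted p = 6.08e-07) and 0.38 with mix 2 (adjusted p = 1.28e-04), and its arrays in the 3 groups did not overlap. PDLIM7, a PDZ and LIM protein of stress fibres, fell by 0.72 with mix 1 (adjusted p = 3.44e-05) and had -0.17 with mix 2 (adjusted p = 0.197). PDLIM5, a relative that binds alpha-actinin, rose by 0.65 with mix 2 (adjusted p = 1.31e-07) and by 0.16 with mix 1 (adjusted p = 0.0273).

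The mix 1 call of PDLIM5 was weak. Leaving out B, C or D among the control arrays, or A or B among those of mix 1, ended it (adjusted p = 0.0527 to 0.0851). Moreover, 5 of its 6 other probe sets fell with mix 1, by 0.31 to 1.06 log2, while all 6 rose with mix 2, by 0.44 to 1.12, and the mean of its probe sets with mix 1 was -0.33.

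**Figure D3:**
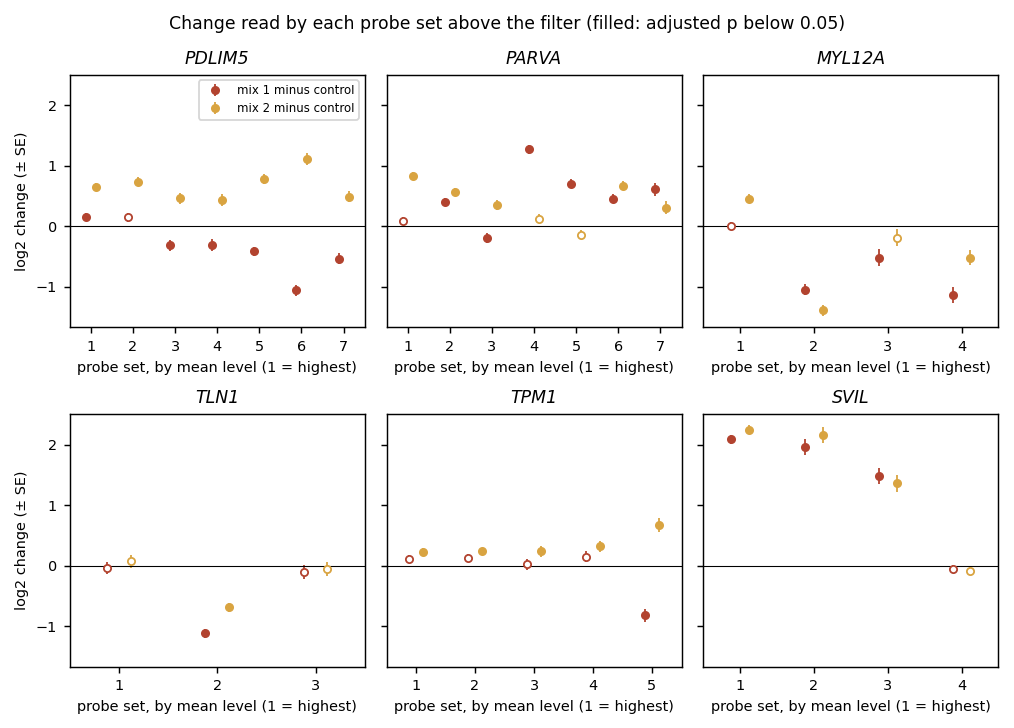
Log2 change (with SE) read by each probe set above the filter for 6 genes with mix 1 and with mix 2 against control, ordered by mean level and filled where the adjusted p is below 0.05. For PDLIM5, 5 of 6 dimmer probe sets fall with mix 1 and all rise with mix 2, and for SVIL 3 of 4 probe sets rise with both.

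Probe sets of 1 gene can read different transcript ends. Over the 31 members with further probe sets above the filter, there were 75 such probe sets. They were set against the probe set used only where that one passed itself. With mix 1 this left 20 members with 50 further probe sets, of which 22 passed in the same direction, 6 passed in the opposite one and 22 did not pass, in a fit over 24652 probe sets of which 33.2% were higher and 31.7% lower. With mix 2 it left 25 members with 63, of which 36 passed in the same direction, 5 in the opposite one and 22 did not pass, where 34.0% of all probe sets were higher and 32.2% lower. The genes with an opposite probe set were CALD1 and PDLIM5 with mix 1, and MYL12A, LIMA1, TAGLN and ENAH with mix 2. Where the probe set used did not pass, 14 of 25 further probe sets passed in some direction with mix 1, and 3 of 12 with mix 2. MYH10, MYLK, LIMK2, TAGLN2 and TES had 1 further probe set each, and it passed in the same direction with both mixes.

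Of the 8 regulators of filament turnover tested, 3 were higher and 3 lower with each mix, which is near the share of all genes in each direction. LIMK2, a LIM kinase that inactivates cofilin, read 6.94, 6.97, 7.03 and 6.84 log2 with mix 1 and 7.53, 7.46, 7.37 and 7.17 with mix 2, against 8.09, 8.16, 7.86 and 7.97 in control. The 3 groups were separate, with mix 1 lowest. LIMK2 fell 2.11-fold with mix 1 (log2 change -1.08, SE 0.09, adjusted p = 3.25e-08) and 1.56-fold with mix 2 (-0.64, SE 0.09, adjusted p = 8.53e-06). LIMK1, its paralogue, rose by 0.41 with mix 1 (adjusted p = 0.00408) and had 0.02 with mix 2 (adjusted p = 0.917), but its probe set not shared with related genes had -0.01 with mix 1. CFL1, cofilin 1, the filament-severing substrate of both kinases, rose by 0.23 with mix 1 (adjusted p = 0.00150) and 0.18 with mix 2 (adjusted p = 0.00700).

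Profilins deliver actin monomers to growing filaments. PFN1 fell by 0.71 with mix 1 (adjusted p = 3.77e-06) and 0.43 with mix 2 (adjusted p = 4.51e-04), with means of 11.52 ± 0.13 log2 with mix 1, 11.80 ± 0.05 with mix 2 and 12.23 ± 0.18 in control. PFN2 rose with mix 2 by 0.24 (adjusted p = 5.01e-04) and had -0.04 with mix 1 (adjusted p = 0.535). ENAH (Mena), which protects growing ends from capping, rose by 0.23 with mix 1 (adjusted p = 9.48e-04) and 0.78 with mix 2 (adjusted p = 3.46e-09), although 1 of its 4 other probe sets fell with mix 2 (-0.95). VASP, of the same family, had 0.08 with mix 1 (adjusted p = 0.252) and -0.13 with mix 2 (adjusted p = 0.0544). DIAPH1, a formin that builds unbranched filaments, fell by 0.20 with mix 1 (adjusted p = 0.0111) and 0.18 with mix 2 (adjusted p = 0.0195), the second call being lost without control replicate A (adjusted p = 0.0608) or C (adjusted p = 0.0507), or with its probe sets averaged (adjusted p = 0.0583).

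SRF, the transcription factor that reads CArG boxes, was lower with mix 2. It read 8.83, 8.87, 8.91 and 8.86 log2 with mix 1 and 8.64, 8.43, 8.62 and 8.26 with mix 2, against 8.89, 9.06, 8.92 and 8.92 in control. All mix 2 arrays were below all others, while mix 1 overlapped control. SRF fell by 0.46 with mix 2 (SE 0.08, adjusted p = 1.00e-04) and had -0.08 with mix 1 (adjusted p = 0.392). Mix 1 minus mix 2 was 0.38 (adjusted p = 8.63e-04), but with the mean of its probe sets this difference did not pass (0.10, adjusted p = 0.164), since there SRF fell with mix 1 as well (-0.21, adjusted p = 0.00485).

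The differences between the changes of 2 paralogues are a description of 9 pairs chosen with the values known. Besides the myosins, LIMK1 exceeded LIMK2 by 1.48 log2 (SE 0.11) with mix 1 and 0.65 (SE 0.07) with mix 2, and PDLIM5 exceeded PDLIM7 by 0.88 (SE 0.14) with mix 1 and 0.81 (SE 0.10) with mix 2. PFN1 stood below PFN2 by -0.67 (SE 0.09) with mix 1 and by -0.67 (SE 0.08) with mix 2. CNN2 minus CNN3 turned round between the mixes, with 0.44 (SE 0.09) with mix 1 and -0.44 (SE 0.05) with mix 2, where CNN2 rests on a probe set that can bind related transcripts. The groups overlapped for TAGLN minus TAGLN2 with mix 2 (-0.02, SE 0.06), for ACTN1 minus ACTN4 with mix 2 (-0.30, SE 0.08) and for VASP minus ENAH with mix 1 (-0.16, SE 0.06). With mix 1 the LIMK1 and PDLIM5 differences rest on probe sets that rose, whereas the other LIMK1 probe set had -0.01 and the mean of the PDLIM5 probe sets fell.

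Further genes of the same machinery were counted from 2 lists. Among 23 tested genes of actin nucleation, capping and monomer binding, 15 rose and 4 fell with mix 1, and 13 rose and 5 fell with mix 2, against 34.8% of all genes higher and 32.3% lower with mix 1 and 36.7% higher and 31.9% lower with mix 2. GSN, gelsolin, which severs and caps filaments, rose by 3.18 log2 with mix 1 (adjusted p = 2.02e-13) and 2.90 with mix 2 (adjusted p = 3.03e-13), to 11.81 ± 0.11 and 11.53 ± 0.10, against 8.63 ± 0.12 log2 in control. CAPZB, a capping protein subunit, rose by 0.94 with mix 1 and 0.99 with mix 2, and CORO1B, a coronin that acts on Arp2/3 branches, by 0.79 with mix 1 and 0.98 with mix 2. DIAPH3, a formin related to DIAPH1, had -2.07 with mix 1 and -1.77 with mix 2, and the coronin CORO1C had -1.26 with mix 1 and -0.71 with mix 2, each past the threshold. The median log2 change of this list was 0.34 with mix 1 and 0.26 with mix 2, where that of all genes tested was 0.01 with mix 1 and 0.03 with mix 2.

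Of 27 further fibre and adhesion genes, 13 rose (48.1%) and 7 fell (25.9%) with mix 2, where 36.7% of all genes rose and 31.9% fell. With mix 1, 9 rose (33.3%) and 10 fell (37%), where 34.8% of all genes rose and 32.3% fell. With mix 1 these shares were near those of all genes. NEDD9, a relative of BCAR1, rose by 1.91 with mix 1 and 2.39 with mix 2, whereas ANLN, anillin, which scaffolds the cytokinetic ring, fell (-1.78 with mix 1 and -2.17 with mix 2). PDLIM1, a PDZ and LIM protein of stress fibres, rose by 0.54 with mix 1 and 0.97 with mix 2, and the adhesion kinase SRC by 0.34 with mix 1 and 0.51 with mix 2. AJUBA, a LIM protein of cell junctions, had -1.32 with mix 1 and -0.88 with mix 2, and PDLIM2 had -1.09 with mix 1 and -0.79 with mix 2, each past the threshold.

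**Figure D4:**
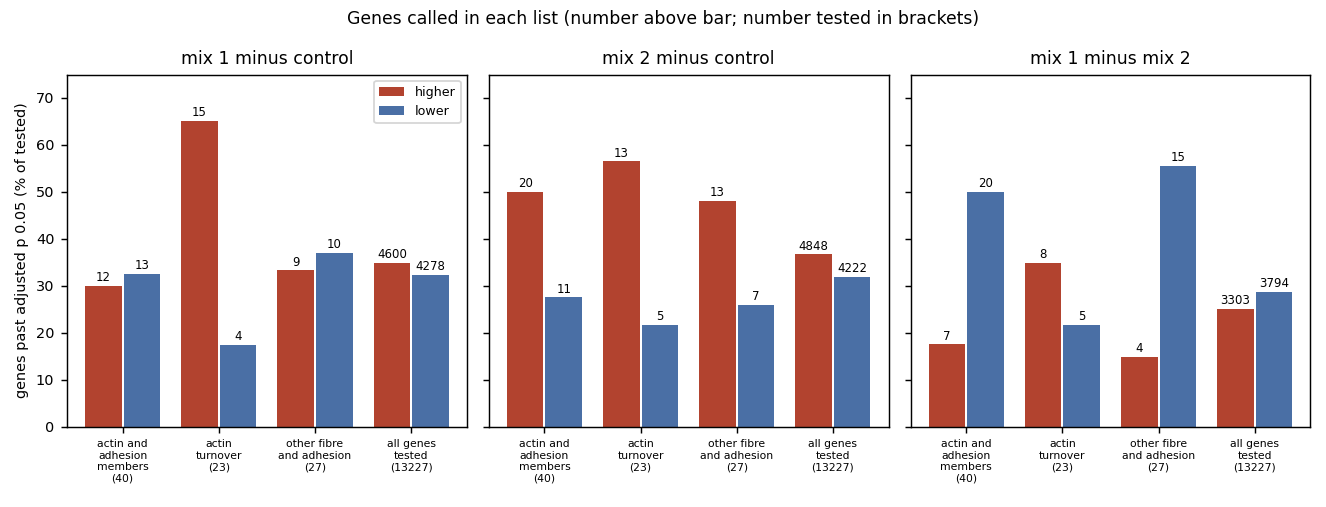
Share of tested genes past an adjusted p of 0.05, higher and lower, among the 40 tested members, 2 lists of related genes and all 13227 tested genes, for mix 1 minus control, mix 2 minus control and mix 1 minus mix 2. The members reach 30% higher and 32.5% lower with mix 1 and 50% higher and 27.5% lower with mix 2, against 34.8% and 32.3%, and 36.7% and 31.9%, of all genes.

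Since several members are typical of smooth muscle, markers of other cells were read as well. Of 7 smooth muscle markers, LMOD1 and SYNPO2 lay below the filter, and the summed linear level of all 7 was 368.9 to 421.6 with mix 1, 383.3 to 467 with mix 2 and 500.0 to 579.7 in control. SMTN, smoothelin, fell by 1.32 log2 with mix 1 and 1.29 with mix 2, whereas ACTG2 rose by 0.32 with mix 1 and 0.40 with mix 2, and ACTA2 fell by 0.33 with mix 1 and rose by 0.49 with mix 2. MYH11 and DES did not pass with either mix. Of 5 endothelial markers, CDH5, KDR and TEK lay below the filter, and VWF, just above it, did not pass with either mix. PECAM1 averaged 8.62 ± 0.10 log2 with mix 1, 7.88 ± 0.10 with mix 2 and 6.54 ± 0.17 in control. The endothelial sum was 481.8 to 548.3 with mix 1, 342.8 to 394.6 with mix 2 and 198.4 to 243 in control. Of 3 leukocyte markers measured, of 5 listed, PTPRC lay below the filter, CD3E did not pass with either mix and CD14 rose by 1.12 log2 with mix 1 and 1.24 with mix 2. The leukocyte sum was 153.7 to 166.4 with mix 1, 168 to 189.3 with mix 2 and 116 to 137.2 in control. The part of these marker changes in the actin and adhesion genes was not tested.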

How the data were processed

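The 12 arrays fall into 3 groups of 4 by their sample titles. The deposited table holds log2 levels per probe set that the authors computed by RMA, as the submitters' processing notes say. Which software and settings they used is not given in the sources used here. RMA usually gives all arrays 1 distribution, which would hide a change common to all genes. The table held 54675 probe sets, of which 41097 named 1 gene, 1801 named several and 62 were controls. The RefSeq gene table (GRCh38.p14) gave current symbols by gene ID for 41043, and 54 kept theirs. Probe sets above the 40th percentile of means (5.46 log2) were kept, and the highest mean stood for a gene. Of the 40 probe sets used for the tested members, 18 have names ending in _s_at or _x_at and can bind transcripts of related genes. Among all 136 probe sets that name a member alone, 65 have such names.

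Groups were compared with limma 3.58.1 in R 4.3.3 (lmFit on 3 group means, 12 arrays, 9 residual degrees of freedom, default eBayes), two-sided, with Benjamini-Hochberg adjustment over all 13227 genes and a threshold of 0.05; the fit was tested on simulated data. Errors of changes are standard errors of this fit, and the number of arrays limits the precision. Replicates were parallel cultures, so p-values measure the spread between such cultures.

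The members, gene lists and comparisons were chosen with earlier results of these data known. All members are named; every array is given for ACTB, SRF, members called with at least 2-fold change and members called in opposite directions, and from each further list up to 3 genes per direction called with each mix in 1 direction. Deviations of arrays with the same letter correlated at 0.370, 0.251, 0.408 and 0.340 (A to D) between mix 1 and control, each above 0.1. Mix 1 replicate B, however, correlated more with control replicate A (0.374) than with control replicate B. Between mix 2 and control the same-letter correlations were 0.034 to 0.212, and between the mixes -0.085 to 0.273. The main fit did not pair arrays, and the letter was used only as a block among the alternatives. Any pairing between mix 1 and control rests on these values, not on the labels. Alternatives were other filters, no probe sets shared between genes, each gene's probe sets averaged, centred arrays, only the groups compared, the replicate block, a trended and robust eBayes and leaving out each array. Promoters come from RefSeq; proteins were not used here, and 1 further gene list is not reported here.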

Additional observations from a re-analysis of the deposited data

Results flagged for a closer look

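In 7 of 123 groups of 4 arrays, 1 array lay far from the other 3 of its group, by the gap to its nearest neighbour over the group's range; chance gives about 1 in 20. Mix 2 replicate D was low for TPM2, the tropomyosin, at 6.76 log2 against 7.23 to 7.31 in the other mix 2 arrays, and for MYH9 at 10.21 against 10.32 to 10.34. Mix 2 replicate C was low for SVIL at 10.46 against 10.56 to 10.57. Mix 1 replicate C was low for CNN3 at 11.59 against 11.79 to 11.83, and mix 1 replicate B for FERMT2 at 11.86 against 11.92 to 11.93. In control, replicate C was low for TAGLN at 6.43 against 6.56 to 6.57, and replicate B was high for ZYX at 7.42 against 7.23 to 7.24.

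TAGLN2 and FERMT2 differed between the mixes in the direction of change. By limma over all tested genes, mix 1 minus mix 2 was -0.632 log2 for TAGLN2 (adjusted p = 1.09e-06) and -0.540 log2 for FERMT2 (adjusted p = 2.59e-07), with 4 of 4 arrays of mix 1 below control and 4 of 4 of mix 2 above it for both genes.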

How the results depend on the processing

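Of the 40 tested members, 21 of 25 calls with mix 1, 20 of 31 with mix 2 and 19 of 27 between the mixes held in direction and threshold. This covers only the alternatives in which the gene could be tested. Genes read only by shared probe sets, such as LIMA1, FERMT2, DIAPH1 and CNN2, were thus not put to the test without shared probe sets. Without shared probe sets the counts with mix 2 were 13 higher and 7 lower of 30 tested. With each gene's probe sets averaged they were 16 higher and 12 lower with mix 2, and 12 higher and 18 lower with mix 1. Values on the other side of 0 came from the choice of probe set. Past the threshold against the direction called were PARVA in mix 1 minus mix 2 without shared probe sets (1.153), and, with each gene's probe sets averaged, PDLIM5 with mix 1 (-0.334) and MYL12A with mix 2 (-0.409). Calls lost with a change of sign were, without shared probe sets, LIMK1 with mix 1 (-0.005), TPM2 with mix 2 (-0.025), and LIMK1 (-0.032) and MYL9 (0.053) between the mixes; averaged, they were TAGLN with mix 2 (-0.062) and PARVA between the mixes (0.090). TLN1 with mix 2 (-0.692 without shared probe sets, -0.224 averaged) and MYL12A with mix 1 (-0.677 averaged) passed there but were not called on the probe set used. With the replicate block the counts were 14 higher and 13 lower with mix 1, 21 and 12 with mix 2, and 9 and 21 between the mixes. For mix 1, where all same-letter correlations with control were above 0.1, the block changed no call but those of MYL9 and TPM2. With mix 2, where not all were, it added ACTB and BCAR1. With 1 array left out, the counts higher and lower were 11 to 13 and 12 to 13 with mix 1, 20 and 9 to 13 with mix 2, and 6 to 8 and 18 to 21 between the mixes. The cause of these changes was not tested, except that fewer genes could be tested without shared probe sets. Centring the arrays gave 13 higher and 13 lower with mix 1 and 21 higher and 11 lower with mix 2.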

Other observations

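Some genes of the further lists differed in their calls with the mixes, and were picked after their values were seen. TNS3, tensin 3, an adhesion protein, fell by 0.72 with mix 1 (adjusted p = 4.11e-08) and rose by 0.33 with mix 2 (adjusted p = 1.31e-04). CFL2, cofilin 2, fell by 1.82 with mix 2 (adjusted p = 1.53e-11) and had -0.08 with mix 1 (adjusted p = 0.381). SSH1, a phosphatase that activates cofilin, rose by 1.19 with mix 1 (adjusted p = 1.08e-09) and had 0.16 with mix 2 (adjusted p = 0.0555).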
